A study of Homo sapiens with 8 samples.

Results

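The average effect of a TAF7 hairpin over 2 breast cancer cell lines was taken from all 8 libraries of the series, 4 with the hairpin TAF7-shRNA-3 (shTAF7 below) against 4 with Ctrl-shRNA, in 1 model that also held a term for the cell line. MDA-MB-231 is a triple-negative, mesenchymal-like breast cancer line, and MDA231-LM2 (LM2 below) is a derivative of it selected in mice for growth in the lung. Each line gave 2 control and 2 shTAF7 libraries, numbered 2 and 3, of mRNA from cells kept in DMEM with fetal bovine serum. The labels give the control cells the genotype WT and the others TAF7 knockdown, and all 8 libraries come from hairpin-carrying cells by their titles. A single hairpin against TAF7 was used, so effects of this hairpin on other transcripts and effects of lower TAF7 cannot be told apart. The labels do not say that libraries of a group are separate cultures, and p-values then measure only the spread between libraries. In bulk RNA, fewer cells of a kind and less RNA per cell cannot be told apart.

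TFIID, which is made of the TATA-binding protein TBP and a set of TBP-associated factors (TAFs), recognises core promoters and seeds the assembly of the RNA polymerase II preinitiation complex. TAF7 binds TAF1, the largest subunit, and holds back its acetyltransferase activity until assembly is complete. It has also been found with the kinases that phosphorylate the polymerase during initiation and early elongation.

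The libraries held 17217776 to 20292291 counts in genes, where 1 read was worth 0.0488 to 0.0583 CPM (counts scaled to library size with TMM factors), and 15923 genes were tested. Principal components of log2 CPM put the lines on the first axis (79.4% of the variance), the hairpin in LM2 on the second (9.03%) and the hairpin in MDA-MB-231 on the third (4.12%). The LM2 control libraries had reads in more genes (24490 and 24762) than the other 6 (22296 to 23434). Of the defining markers of these cells, VIM, AXL, CAV1 and CD44 each had at least 5588 counts in every library, while ESR1 and PGR, absent from triple-negative cells, had at most 5. ERBB2, the HER2 gene listed with them, had 974 to 1389 counts per library and was not called on average. Of 14 leukocyte markers, 2 were at 0 in all libraries and 11 had under 10 counts in every library, among them PTPRC with at most 5. CD8A had 47 to 155 counts per library and CSF1R 16 to 37, neither called on average, and the summed level of the list lay between 4.73 and 11.5 CPM.

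TAF7 (ENSG00000178913) was at 179 and 185 CPM in MDA-MB-231 control libraries, 108 and 105 with the hairpin, 195.3 and 197 in LM2 control libraries, and 142 and 148 with the hairpin. All 4 shTAF7 libraries were below all 4 controls, and the depletion was partial. On average TAF7 fell to 65.9% of control (log2 fold change -0.60 ± 0.08, SE of the fit; edgeR adjusted p = 0.00137), with the smaller change in LM2 (-0.43 against -0.77 in MDA-MB-231; edgeR adjusted p = 0.00544 for the difference). TAF1, the partner of TAF7, was at 41.0 and 37.0, 25.95 and 26.9, 20.3 and 22.5, and 15.2 and 14.5 CPM in the same order of groups. It fell by nearly the same log2 amount in both lines (average -0.55 ± 0.08, edgeR adjusted p = 0.00207). TAF9, a histone-fold subunit shared with the SAGA coactivator, rose by 0.33 ± 0.07, although its reads and those of the overlapping gene AK6 may be mixed. The TAF9 call was lost with a replicate block within lines (edgeR adjusted p = 0.0525) and with limma on log2 FPKM (adjusted p = 0.05004). The other 13 of the 16 TFIID subunits did not pass the test, with TBP at -0.12 ± 0.08 and TAF4 at 0.10 ± 0.07. Per length, TAF7 was by far the more abundant mRNA of the pair, with 60.2 and 61.8 FPKM against 3.71 and 3.33 for TAF1 in control libraries of MDA-MB-231 (FPKM: fragments scaled to transcript length and depth, as deposited).

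Across the genome 1662 genes rose (10.4% of those tested) and 1355 fell (8.51%) on average, at a Benjamini-Hochberg adjusted p under 0.05 in edgeR's quasi-likelihood test. Most changes were small. The median log2 fold change was 0.35 among genes that rose and -0.41 among those that fell, and 161 and 357 of them changed at least 1.5-fold. At an unadjusted p under 0.05 it was 33.4% of genes. At least 2-fold, 29 rose (0.182%) and 164 fell (1.03%), and of these 13 and 25 had a mean of at least 5 CPM. In both lines the shTAF7 libraries lay outside the range of the controls, on the same side, for 2432 genes above (15.3%) and 1988 below (12.5%). These counts depended on single libraries. Without LM2 control replicate 3, 774 rose and 689 fell, and without LM2 shTAF7 replicate 3, 799 and 654. At least 2-fold lower were 259 without MDA-MB-231 shTAF7 replicate 3 but 81 and 67 without LM2 control replicates 2 and 3, and 82 and 53 without LM2 shTAF7 replicates 2 and 3. At least 2-fold higher were 18 and 15 without LM2 control and shTAF7 replicate 3. With limma on log2 FPKM the balance turned, with 1071 higher and 1589 lower. With offsets for transcript length and GC content, chosen after seeing the data, 1373 rose and 874 fell.

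The average describes the lines unequally from gene to gene. Responses that differ between the lines enter the residual of its model, so genes with the same sign in both lines are favoured among calls. Of the genes that rose, 1651 had a positive estimate in both lines. Called higher were 971 in both, 547 in LM2 alone and 135 in MDA-MB-231 alone. The medians of the genes that rose were 0.28 in MDA-MB-231 and 0.41 in LM2. Of the genes that fell, 1326 had a negative estimate in both lines. Called lower were 651 in both, 486 in LM2 alone and 210 in MDA-MB-231 alone. The medians of the genes that fell were -0.34 in MDA-MB-231 and -0.45 in LM2. The difference between the lines was itself called for 377 of the genes that rose and 359 of those that fell, against 4113 of all genes tested (25.8%). Over the 9412 genes with a mean of at least 10 CPM the log2 fold changes of the 2 lines, which share no library, had a Pearson r of 0.21 across genes, and over all genes tested it was 0.036. Tested within its own line, the hairpin raised 2013 genes (12.6%) and lowered 2057 (12.9%) in MDA-MB-231, and raised 3478 (21.8%) and lowered 3092 (19.4%) in LM2. A call with the same sign in both lines was made for 1637 genes (10.3%).

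**Figure D1:**
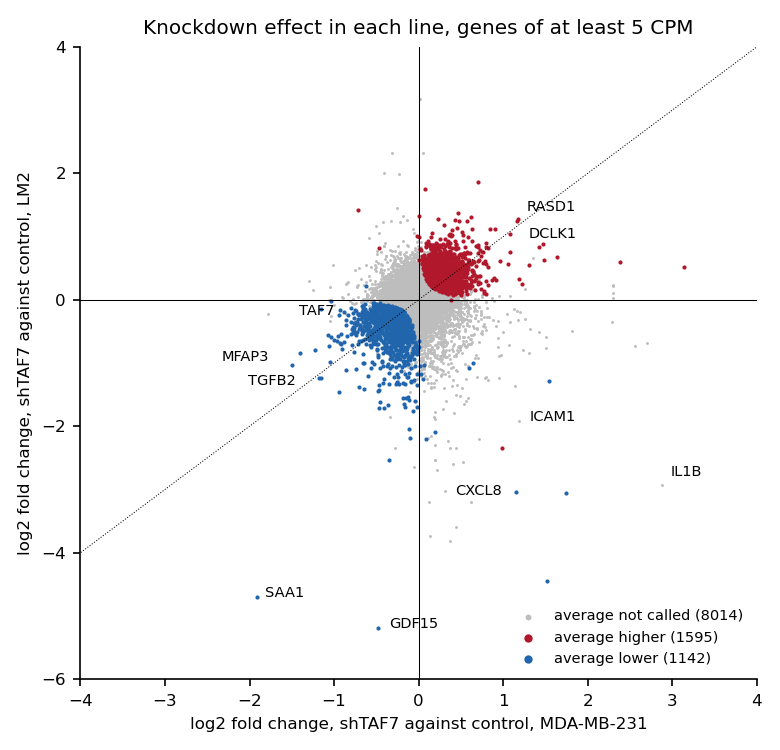
Log2 fold change of shTAF7 against control in MDA-MB-231 (x axis) and in LM2 (y axis) for 10751 genes with a mean of at least 5 CPM, 3 of them beyond the axes; each point is a gene, coloured by its call on average, and the dotted line marks equal effects. Of the called genes, 1588 of 1595 higher and 1129 of 1142 lower lie where both lines moved the same way. The model favours such genes, because responses that differ between the lines enter its residual. The lower right holds uncalled genes such as IL1B, CXCL8 and ICAM1 and also C3, IL6 and CSF3, which were called lower.

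Of the genes that fell furthest in both lines, the 4 with a TATA motif in their promoter are described first, and they were put together for that motif. TGFB2 (ENSG00000092969), the ligand transforming growth factor beta 2, was at 76.5 and 76.2 CPM in MDA-MB-231 control libraries, 36.0 and 31.6 with the hairpin, 73.3 and 73.2 in LM2 control libraries, and 31.2 and 30.7 with the hairpin. The 2 lines thus started and ended at nearly the same level, and TGFB2 fell to 43.2% of control (-1.21 ± 0.06, edgeR adjusted p = 6.49e-06). IL7R, the interleukin-7 receptor alpha chain, went from 56.1 and 57.7 to 31.8 and 27.7 CPM in MDA-MB-231 and from 35.0 and 37.9 to 13.6 and 12.9 in LM2 (-1.18 ± 0.11, edgeR adjusted p = 0.000277). All shTAF7 libraries of IL7R were below all controls, and the fall was larger in LM2. FLG, which encodes filaggrin of the epidermal barrier, was lower in both lines at a low level, from 14.1 and 15.8 to 6.36 and 5.02 CPM and from 7.38 and 7.91 to 4.13 and 4.38 (-1.14 ± 0.14, edgeR adjusted p = 0.00137), with an antisense gene at its locus whose reads may be counted in it. GDF15, a stress-induced cytokine, fell in both lines too, but far more in LM2, as described below. Each of these 4 has TATAAA on the gene's strand 29 or 30 bases before the start that RefSeq annotates (build GRCh38.p14), where a TATA box that TBP can bind usually lies. The 100 bases before the start are shown 5′ to 3′ on the gene's strand for TGFB2 (chr1:218345236-218345335, plus strand), IL7R (chr5:35856791-35856890, plus strand), FLG (chr1:152325240-152325339, minus strand) and GDF15 (chr19:18386058-18386157, plus strand), and for MFAP3 (chr5:154038867-154038966, plus strand), a gene that fell as far, and DCLK1 (chr13:36131940-36132039, minus strand), the gene with the smallest p among those that rose, as examples without that motif in this window. Capitals mark matches on either strand to the TATA motif TATAAA, the CCAAT box CCAAT, the GC box GGGCGG, the AP-1 site TGACTCA, the cyclic AMP response element TGACGTCA or the TEAD site GGAATG.
TGFB2: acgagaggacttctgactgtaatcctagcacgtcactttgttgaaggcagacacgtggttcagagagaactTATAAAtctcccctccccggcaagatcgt
IL7R: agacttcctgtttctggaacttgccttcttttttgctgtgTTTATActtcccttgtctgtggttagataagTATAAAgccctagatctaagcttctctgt
FLG: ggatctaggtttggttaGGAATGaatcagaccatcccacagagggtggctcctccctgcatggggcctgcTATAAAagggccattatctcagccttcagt
GDF15: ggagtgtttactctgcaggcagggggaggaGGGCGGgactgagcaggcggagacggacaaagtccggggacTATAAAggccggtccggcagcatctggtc
MFAP3: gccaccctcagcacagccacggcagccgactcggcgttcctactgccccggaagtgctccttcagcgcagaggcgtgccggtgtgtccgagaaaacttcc
DCLK1: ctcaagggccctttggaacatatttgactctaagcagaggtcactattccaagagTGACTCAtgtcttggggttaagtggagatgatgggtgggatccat

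TATAAA between 40 and 16 bases before the start was present in 4 of the 14 named genes that were lowest or had the smallest p among those that fell and for which RefSeq gave a promoter, and in 0 of 16 named genes that rose. Only this exact string was counted. Close variants in that window were left out, such as TATAAG in RASD1 and S100A6 and TATATA in IGFBP3, which rose. TTTAAA in CHAC1 and EPAS1, which fell, was left out too. Over 10571 promoters matched to the 12888 tested protein-coding genes (82.0%), 1.72% held it, against 2.16% of those of genes that rose and 2.10% of genes that fell. The named genes came from called genes without overlap in either line. Of these, 1.70% of 883 promoters of genes that fell held it, and 2.11% of 1282 of genes that rose. For changes of at least 1.5-fold the shares were 6.09% of 197 promoters of genes that fell and 8.49% of 106 of genes that rose. These larger shares rest on 12 and 9 promoters. So the motif was more frequent at genes with the larger changes in either direction, and its share in the whole promoter table was 2.54% of 27305. These are matches of letters at annotated starts, and whether these starts are used in these cells was not measured. In the whole window of 300 bases, CCAAT was in 38.9% of promoters of genes that rose, 34.0% of those that fell and 36.6% of all, GGGCGG in 70.4%, 69.9% and 70.0%, and TGACTCA in 3.50%, 3.40% and 3.05%.

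Several other genes fell in both lines, some by nearly equal amounts. MFAP3, a membrane protein associated with microfibrils, was at 78.6 and 77.4 CPM in MDA-MB-231 control libraries, 27.6 and 27.8 with the hairpin, 47.6 and 48.3 in LM2 control libraries, and 24.4 and 22.7 with the hairpin. It fell to 41.6% of control (-1.26 ± 0.09, edgeR adjusted p = 5.9e-05), ending at nearly the same level in both lines. VGLL3, a cofactor of TEAD transcription factors, fell from 11.0 and 11.7 to 4.43 and 5.66 CPM in MDA-MB-231 and from 14.7 and 16.2 to 5.25 and 7.81 in LM2 (-1.20 ± 0.14, edgeR adjusted p = 0.00101). AMIGO2, a cell adhesion molecule, fell to near the same fraction of control in both lines, from 180.5 and 191 to 95.9 and 84.2 CPM and from 75.3 and 81.0 to 40.9 and 38.2. Its average change was -1.02 ± 0.07 (edgeR adjusted p = 2.31e-05), and the MDA-MB-231 shTAF7 libraries stayed above the LM2 controls. EGR1, an immediate early transcription factor, went from 213 and 211 to 122 and 132 CPM in MDA-MB-231 and from 368 and 393 to 177 and 178 in LM2 (-0.92 ± 0.08, edgeR adjusted p = 0.000277). Every shTAF7 library of EGR1 was below every control, although the 2 LM2 shTAF7 libraries were above those of MDA-MB-231. TTPAL, a tocopherol transfer protein-like gene, had almost the same values in the lines, 74.2 and 71.3, 46.9 and 49.1, 74.4 and 75.7, and 50.2 and 48.0 CPM in the order of groups used above (-0.60 ± 0.06, edgeR adjusted p = 0.00034). MAPK6, the atypical kinase ERK3 (-0.90 ± 0.08), KRT80, a keratin (-0.81 ± 0.08), AJUBA, a LIM-domain scaffold of the Hippo pathway (-0.59 ± 0.06), and CDK15, a little-studied kinase (-1.11 ± 0.15), were also called in each line.

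Among the genes that rose in both lines, DCLK1 (ENSG00000133083), a microtubule-associated kinase, was at 8.99 and 8.56 CPM in MDA-MB-231 control libraries, 21.3 and 18.05 with the hairpin, 44.0 and 46.1 in LM2 control libraries, and 108 and 105 with the hairpin. It rose 2.31-fold (1.21 ± 0.07, edgeR adjusted p = 1.52e-05), and the change was alike from starting levels that differed between the lines (1.16 and 1.24). RASD1, a small GTPase induced by glucocorticoids, rose from 3.95 and 5.99 to 11.5 and 10.9 CPM and from 34.1 and 34.7 to 74.4 and 92.5 (1.24 ± 0.11, edgeR adjusted p = 0.000277). TM4SF1, a tetraspanin-like surface protein, was among the more abundant, at 223 and 226, 365 and 364, 349.9 and 323, and 579 and 623 CPM in the same order (0.77 ± 0.06, edgeR adjusted p = 0.000221). All 4 shTAF7 libraries were above all 4 controls, those of MDA-MB-231 by a small margin over the LM2 controls. BNIP3, a mitophagy receptor, rose 1.55-fold, from 221 and 219 to 350.2 and 339 CPM and from 317 and 301 to 456 and 486 (0.63 ± 0.06, edgeR adjusted p = 0.00034). The calcium-binding S100A6 (0.66 ± 0.08), the small redox-domain protein SH3BGRL3 (0.67 ± 0.08), the GTPase RAP2B (0.54 ± 0.06) and the focal adhesion protein TNS2 (0.51 ± 0.06) rose by similar amounts in each line. Lower in abundance, SP5, a transcription factor downstream of Wnt signalling, rose from 4.21 and 3.97 to 7.23 and 8.10 CPM and from 4.29 and 4.74 to 9.32 and 10.3 (1.02 ± 0.12, edgeR adjusted p = 0.00129). CRABP2, which carries retinoic acid to its receptor, rose by 1.14 ± 0.14, more in MDA-MB-231 (1.47) than in LM2 (0.89). Unequal in the other direction were KRT19, a keratin of simple epithelia (1.31 in LM2 against 0.63 in MDA-MB-231), and IGFBP3, which binds insulin-like growth factors (1.37 against 0.47). NKX2-1, a transcription factor of lung and thyroid, rose from 32.8 and 30.4 to 48.3 and 54.4 CPM in MDA-MB-231 and from 1.32 and 1.45 to 4.19 and 5.86 in LM2.

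**Figure D2:**
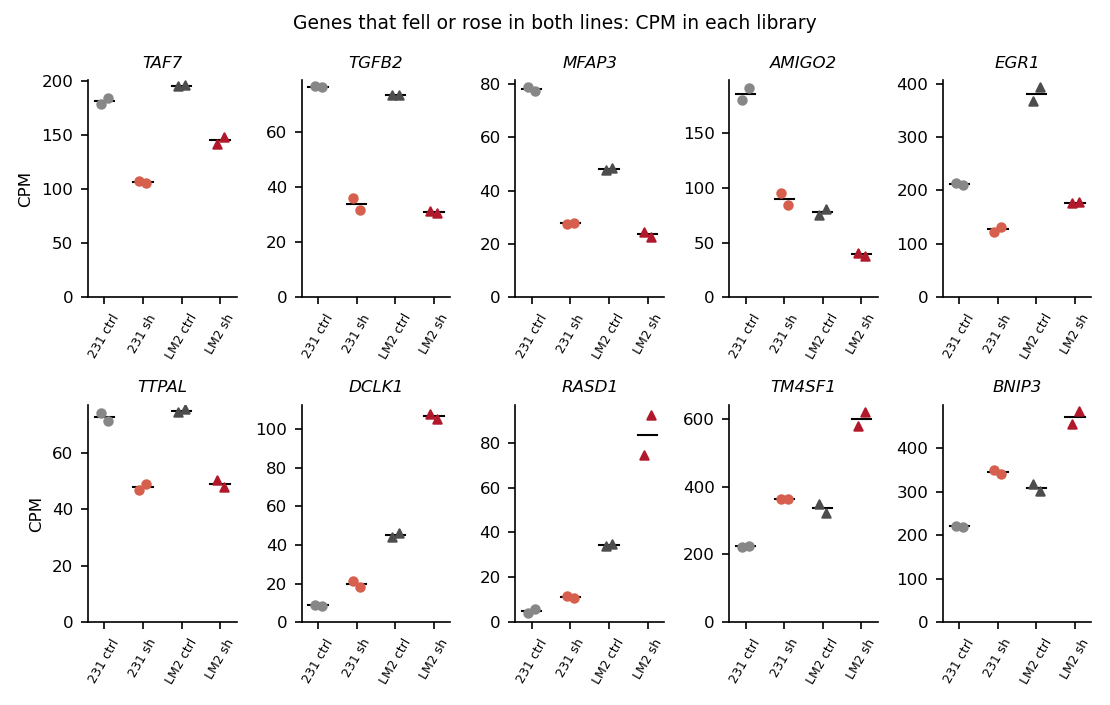
CPM of 10 genes in each of the 8 libraries (points; circles MDA-MB-231, triangles LM2; bars are group means of 2 libraries; ctrl is Ctrl-shRNA and sh is TAF7-shRNA-3), each panel on its own axis from 0. In each line the 2 shTAF7 libraries lie below both controls for TAF7, TGFB2, MFAP3, AMIGO2, EGR1 and TTPAL, and above both for DCLK1, RASD1, TM4SF1 and BNIP3. Apart from TAF7, the rule that named these genes required this separation.

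A number of large average changes came mostly from LM2. GDF15 was at 15.8 and 16.3 CPM in MDA-MB-231 control libraries, 11.7 and 11.3 with the hairpin, 35.8 and 37.7 in LM2 control libraries, and 0.614 and 1.37 with the hairpin. Its average of -2.23 ± 0.66 (edgeR adjusted p = 0.0353) stands for -0.48 in MDA-MB-231 and -5.19 in LM2. The call was lost when any LM2 library was left out, with adjusted p of 0.0558 and 0.0795 without control replicates 2 and 3, and 0.0908 and 0.144 without shTAF7 replicates 2 and 3, and also with a robust dispersion prior, chosen after seeing the data (0.178). SAA1, an acute-phase protein, went from 5.10 and 4.53 to 1.28 and 1.27 CPM in MDA-MB-231 and from 65.3 and 63.0 to 2.29 and 2.64 in LM2 (-3.83 ± 0.40, edgeR adjusted p = 0.000613). SAA2 is almost identical in sequence, and the counting may have split reads between them. EPAS1, the hypoxia-inducible factor HIF-2 alpha, hardly differed in MDA-MB-231 (-0.11 ± 0.08) and fell in LM2 from 87.8 and 101 to 24.8 and 21.3 CPM. Its average of -1.06 ± 0.30 passed the test (edgeR adjusted p = 0.029) but not without any 1 of the LM2 libraries, with adjusted p between 0.0554 and 0.123 (0.0554 and 0.0756 without control replicates 2 and 3, 0.107 and 0.123 without shTAF7 replicates 2 and 3). Among other settings, it did not pass with limma on log2 FPKM (0.0647), with length and GC offsets (0.0586) or with the robust prior (0.148).

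Because the fit weights each library by its counts, a gene with few reads in 1 line takes its average from the other. Complement C3 was at 0.208 and 0.112 CPM in control libraries of MDA-MB-231 and 0.35 and 0.5854 with the hairpin, against 109 and 123, and 5.41 and 5.23, in LM2. Its average of -4.10 ± 0.47 therefore describes LM2. The mean of the 2 within-line estimates was -1.46, and the call was lost with DESeq2 (-1.64, adjusted p = 0.299) and with limma (adjusted p = 0.092). For the cytokine IL6 (0.52 and 0.448, 0.933 and 1.22, 86.7 and 80.6, 10.2 and 10.1 CPM) the average was -2.48 ± 0.46 and the equal-weight mean -0.94, while DESeq2 gave -1.05 with an adjusted p of 0.383 and limma an adjusted p of 0.12. Within MDA-MB-231 IL6 was called higher (1.15, edgeR adjusted p = 0.0188). So was CSF3, granulocyte colony-stimulating factor (1.54, edgeR adjusted p = 0.0153), at no more than 0.780 CPM in that line. On average CSF3 was called lower (-1.12 ± 0.21) but had an equal-weight mean of 0.13. DESeq2 gave -0.11 for CSF3 (adjusted p = 0.921) and limma no call (adjusted p = 0.206). The reverse case was the antisense RNA AFAP1-AS1, at 115 and 117 CPM in MDA-MB-231 control libraries, 76.9 and 74.8 with the hairpin and at most 0.223 in LM2. With strand-unaware counting its reads and those of AFAP1 could not be told apart. MMP1, an interstitial collagenase, rose in LM2 from 252 and 240.4 to 496 and 519 CPM and had at most 0.933 CPM in MDA-MB-231.

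Lists of genes with a common function were described by the number of members that passed the test and by their median, beside 10.4% higher, 8.51% lower and a median of -0.01 over all genes tested. Counts within a line stand beside 12.6% higher and 12.9% lower of all genes in MDA-MB-231, and 21.8% and 19.4% in LM2. Cytosolic and mitochondrial ribosomal proteins and nuclear-encoded subunits of the respiratory chain were called higher more often than all genes. This did not extend to all of protein synthesis, as 2 of 20 tRNA synthetases rose and 3 fell. Of 49 ribosome biogenesis genes, 10 rose and 4 fell on average, with 6 higher and 16 lower in MDA-MB-231 and 29 and 2 in LM2. Of 78 cytosolic ribosomal proteins, 66 rose, 0 fell and 12 did not pass, with a median of 0.32 (0.31 in MDA-MB-231 and 0.33 in LM2). FAU, the precursor of ribosomal protein eS30, was at 59.9 and 60.3 CPM in MDA-MB-231 control libraries, 79.5 and 89.4 with the hairpin, 66.1 and 70.5 in LM2 control libraries, and 86.4 and 114 with the hairpin (0.52 ± 0.09, edgeR adjusted p = 0.00332). RPL18 of the large subunit rose 1.38-fold, with every shTAF7 library above every control, although reads of these genes may be shared with their pseudogenes. Of 73 nuclear-encoded subunits of the respiratory chain and ATP synthase, 48 rose and 0 fell, with a median of 0.30 (0.25 and 0.33). Examples were COX8A of cytochrome c oxidase (0.64 ± 0.09) and ATP5MF of ATP synthase (0.61 ± 0.11). Of 73 mitochondrial ribosomal proteins, 31 rose, 0 fell and 42 did not pass, with a median of 0.22 (0.13 and 0.33), among them MRPL16 (0.48 ± 0.08). For the 13 mRNAs encoded in mitochondria, 1 rose, MT-ND3 (0.49 ± 0.10), a share below that of all genes, and the median was 0.16. Left-out libraries moved these counts: without LM2 control replicate 3, 29 respiratory subunits and 12 mitochondrial ribosomal proteins rose. Without LM2 shTAF7 replicate 3 these counts were 31 and 14, and 19 mitochondrial ribosomal proteins rose without LM2 control replicate 2. These are mostly short transcripts, and transcript length moved with the effect, as given below. With length and GC offsets, 57 cytosolic ribosomal proteins, 40 respiratory subunits and 17 mitochondrial ribosomal proteins rose.

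The stress genes controlled by ATF4, which switches on amino acid uptake and synthesis, moved the other way. Of 31 tested, 17 fell, 1 rose and 13 did not pass, with a median of -0.42. CHAC1, which degrades glutathione, fell from 21.5 and 19.5 to 12.1 and 13.0 CPM in MDA-MB-231 and from 31.2 and 29.5 to 9.94 and 13.3 in LM2 (-1.05 ± 0.14, edgeR adjusted p = 0.00172). SESN2, an inhibitor of mTORC1, fell from 19.4 and 17.2 to 14.4 and 12.3 CPM and from 61.3 and 68.4 to 19.5 and 20.1 (-1.13 ± 0.20, edgeR adjusted p = 0.00493). No shTAF7 library of either gene reached a control of its line, which the rule that named them required. For both genes the larger fall was in LM2. That held over the list, whose median was -0.13 in MDA-MB-231 (12 fell, 6 rose) and -0.74 in LM2 (24 fell, 3 rose). SLC7A11, the cystine importer (-0.54 ± 0.08), and the stress factor ATF3 (-0.92 ± 0.12) were called in each line, and STC2, a secreted glycoprotein hormone, fell by 1.55 ± 0.27. Of the ATF4 list, 11 fell without LM2 control replicate 3, without LM2 shTAF7 replicate 2 and without LM2 shTAF7 replicate 3. In a list of ER chaperones and unfolded protein response genes 6 of 23 fell and 0 rose, including HYOU1 (-0.46 ± 0.10), and 4 fell without any 1 of the LM2 libraries. NFE2L2, which encodes the antioxidant regulator NRF2, fell to 66.3% of control (-0.59 ± 0.07).

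Among TGF-beta and YAP/TEAD target genes the share that fell was above the 8.51% of all genes. Of 30 TGF-beta targets, 8 fell and 2 rose, with a median of -0.22 (-0.08 in MDA-MB-231 and -0.24 in LM2). The difference between the lines was called for 18 of the 30, against 25.8% of all genes. Opposite calls in the lines were made for 6, against 3.88% of all genes. The cytokine IL11 fell in both lines (-0.66 and -0.54, average -0.61 ± 0.07), as did the basement membrane collagen COL4A1 (average -0.56 ± 0.08). Of the TGF-beta targets, 5 fell without MDA-MB-231 shTAF7 replicate 2 or without any 1 of LM2 control replicates 2 and 3 and LM2 shTAF7 replicate 2, and 4 without LM2 shTAF7 replicate 3. Of 27 YAP/TEAD targets, 7 fell and 2 rose, with a median of -0.16. This average combined -0.33 in MDA-MB-231, where 19 fell, with 0.04 in LM2. In LM2, 7 YAP/TEAD targets fell and 6 rose, beside 19.4% and 21.8% of all genes tested there. TGFB2, VGLL3 and AJUBA, described above, are members of this list. Of 26 immediate early genes 8 fell and 4 rose, with a median of -0.27, and ATF3 and EGR1 had the lowest called values. The count of immediate early genes that rose was 2 without replicate 3 of either LM2 group or LM2 control replicate 2. The 21 genes of MAPK output and EGFR ligands had 4 lower and 0 higher, and EGFR fell to 79.0% of control (-0.34 ± 0.07, edgeR adjusted p = 0.00647). Of these MAPK genes 2 fell without LM2 shTAF7 replicate 3 and 6 without MDA-MB-231 shTAF7 replicate 2.

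Among the transcription machinery, subunits of RNA polymerase II and general factors outside TFIID rose in 10 of 28 cases and fell in 1, with a median of 0.14. They included the polymerase subunits POLR2H (0.37 ± 0.06, nearly equal in both lines) and POLR2L (0.49 ± 0.09). That count was 3 without LM2 control replicate 3 and without LM2 shTAF7 replicate 3, 5 without MDA-MB-231 control replicate 2 and without replicate 2 of either LM2 group, 6 without MDA-MB-231 shTAF7 replicate 2, and 4 with length and GC offsets. In the elongation list 3 of 18 rose and 4 fell. AFF4, the scaffold of the super elongation complex, was at 165 and 167 CPM in MDA-MB-231 control libraries, 121 and 112 with the hairpin, 161 and 159.8 in LM2 control libraries, and 121 and 107 with the hairpin. All its shTAF7 libraries were below all controls (-0.50 ± 0.06, edgeR adjusted p = 0.00137), while NELFA, a pausing factor, rose by 0.52 ± 0.10. Of the elongation genes 2 fell without LM2 control replicate 3 and without LM2 shTAF7 replicate 3, and 1 with the length and GC offsets. Of 22 SAGA and ATAC coactivator genes 3 rose and 4 fell, the latter led by SUPT20H of the SAGA core (-0.75 ± 0.08, with -0.79 and -0.71 in the lines). The count of SAGA and ATAC genes that fell was 2 without MDA-MB-231 control replicate 3, MDA-MB-231 shTAF7 replicate 2, LM2 control replicate 3 or LM2 shTAF7 replicate 3. Mediator had 3 of 32 subunits higher (9.38%) and 2 lower (6.25%), both shares below those of all genes (10.4% and 8.51%). Its MED1, a contact for nuclear receptors, was at -0.35 ± 0.07.

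Glucose metabolism and hypoxia genes rose on average in 15 of 37 cases and fell in 0, with medians of 0.20 in MDA-MB-231 and 0.30 in LM2. Within the lines, 18 rose and 0 fell in MDA-MB-231, and 23 rose and 4 fell in LM2. Of these genes 3 were called in opposite directions in the lines. BNIP3 was described above, and CA9, a carbonic anhydrase induced by low oxygen, rose by 1.254 ± 0.19 from low levels (1.61 to 2.07 CPM in the controls of both lines). PFKFB4 (0.53 ± 0.07) and TPI1 (0.44 ± 0.08) of glycolysis were called in both lines. SR proteins and hnRNPs, which direct splicing, rose in 15 of 37 cases and fell in 0, with a median of 0.07 in MDA-MB-231 and 0.33 in LM2. The count for splicing proteins was 8 without replicate 2 of either LM2 group and 5 without replicate 3 of either. Heat shock genes had 4 of 31 higher, among them the mitochondrial chaperonin HSPE1 (0.55 ± 0.12), and HSPB8, a small heat shock protein, alone lower (-1.83 ± 0.21). Their share of 12.9% higher was near the 10.4% of all genes, and 3.23% lower was below the 8.51%. The heat shock count was 2 without LM2 control replicate 3 and 8 without MDA-MB-231 shTAF7 replicate 3. HSPB8 fell from 1.66 and 1.57 to 0.525 and 0.341 CPM in MDA-MB-231 and from 4.73 and 5.41 to 1.40 and 1.53 in LM2, so its fall was alike in both lines at a low level.

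In other lists the effects were unequal between the lines. Cholesterol synthesis rose in 24 of 29 members in LM2 and in 4 in MDA-MB-231, where 6 fell, and 7 rose on average, with INSIG1, a brake on SREBP processing, at 0.73 ± 0.11. G1/S and DNA replication genes rose in 38 of 46 cases in LM2 and in 3 in MDA-MB-231, where 15 fell, and 8 rose on average. G2/M genes had 7 of 39 higher on average, among them the mitotic kinase AURKB (0.37 ± 0.06). On average no member of these 3 lists fell. Without LM2 control replicate 3 the members that rose were 3 of the cholesterol list, 2 of G1/S and 2 of G2/M, and without LM2 shTAF7 replicate 3 they were 3, 2 and 4. Without LM2 control replicate 2 the cholesterol and G1/S counts were 4 and 3, and without LM2 shTAF7 replicate 2 the 3 counts were 4, 5 and 4. Without MDA-MB-231 shTAF7 replicate 3, 14 cholesterol genes and 13 G1/S genes rose, and 11 cholesterol genes without MDA-MB-231 control replicate 3. Replication-dependent histones were higher in MDA-MB-231 (median 0.51) and lower in LM2 (-0.43). Of 12 tested, 1 was called on average, H3C10, whose near-identical copies can share its reads, and how evenly mRNA enrichment kept these transcripts was not tested.

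The inflammatory lists gave the plainest case of an average without a common effect. Of 28 NF-kB cytokines and targets, 16 rose and 2 fell in MDA-MB-231, 0 rose and 27 fell in LM2, and 8 were called lower on average (median -0.70). Among the 8, REL, an NF-kB subunit, was lower in both lines (-1.252 and -0.74, average -0.999 ± 0.16). Of 40 interferon-stimulated genes, MDA-MB-231 had 17 higher and 1 lower, LM2 had 1 higher and 28 lower, and on average 2 rose and 4 fell. The NF-kB count was 16, 17, 12 and 15 with MDA-MB-231 control replicates 2 and 3 and shTAF7 replicates 2 and 3 left out in turn, and 5, 5 and 4 without LM2 control replicate 3, shTAF7 replicate 2 and shTAF7 replicate 3. The interferon count was 1 without either LM2 control replicate, 2 without either LM2 shTAF7 replicate and 6 and 7 without replicate 2 of the MDA-MB-231 control and shTAF7 groups, for members that fell. In all, 618 genes (3.88% of those tested) were called in opposite directions in the lines. Of them, 305 were higher in MDA-MB-231 and lower in LM2 and 313 the reverse. On average 614 of the 618 were not called, in a model that puts such differences into its residual.

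IL1B, interleukin-1 beta, was at 4.99 and 4.98 CPM in MDA-MB-231 control libraries, 36.9 and 36.7 with the hairpin, 1088 and 1040 in LM2 control libraries, and 139 and 141 with the hairpin. The 2 shTAF7 groups lay between the 2 controls, and the average was -0.53 ± 1.03 (edgeR adjusted p = 0.761). CXCL8, the chemokine interleukin-8, went from 130.0 and 134 to 163 and 165 CPM in MDA-MB-231 and from 679.8 and 610.3 to 79.5 and 78.5 in LM2, with an average of -1.36 ± 0.56 that did not pass (edgeR adjusted p = 0.11). Leaving out control replicate 2 or 3 of MDA-MB-231 gave a call (-1.93 with adjusted p = 0.037, and -1.92 with adjusted p = 0.0329). VEGFA, the vascular growth factor, rose from 126 and 131 to 147 in both shTAF7 libraries of MDA-MB-231 and fell from 340.0 and 338 to 101 and 97.3 CPM in LM2. Its average was -0.79 ± 0.31 (edgeR adjusted p = 0.0925), and it passed without either MDA-MB-231 control (adjusted p = 0.0368 without replicate 2 and 0.0358 without replicate 3). ICAM1, an adhesion molecule for leukocytes (1.18 in MDA-MB-231 and -1.92 in LM2), TXNIP, an inhibitor of thioredoxin (0.42 and -1.79), and PTX3, a soluble pattern receptor (0.44 and -1.51), showed the same arrangement. Other settings called these averages lower. Without the low-count filter all 6 passed, with adjusted p from 0.00315 for ICAM1 and 0.00014 for IL1B down to 9.41e-45 for CXCL8. With the mean of the within-line contrasts, whose residual leaves out the difference between the lines, CXCL8, VEGFA, TXNIP, ICAM1 and PTX3 passed and IL1B did not. For CXCL8 and VEGFA the LM2 shTAF7 libraries ended below the MDA-MB-231 controls, and for ICAM1, TXNIP and PTX3 above them.

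**Figure D3:**
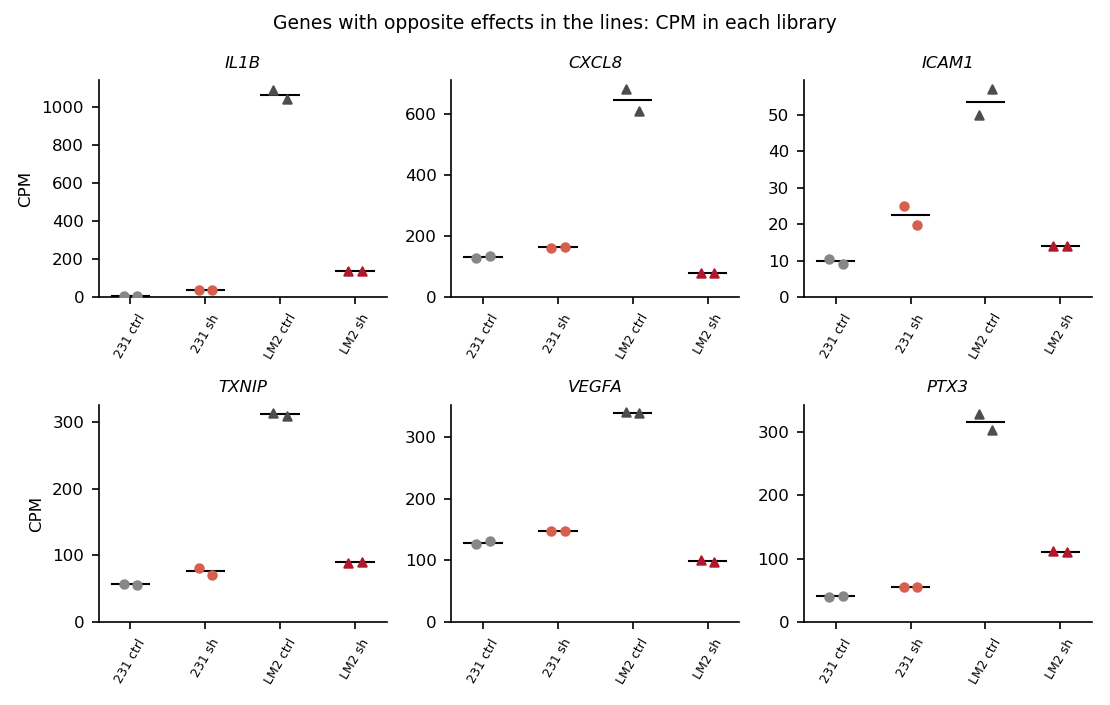
CPM of 6 genes with opposite called effects in the lines, in each of the 8 libraries (points; circles MDA-MB-231, triangles LM2; bars are group means of 2 libraries; ctrl is Ctrl-shRNA and sh is TAF7-shRNA-3), each panel on its own axis from 0. In every panel shTAF7 is above control in MDA-MB-231 and below it in LM2, where the controls are highest.

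Genes of invasion and cell identity showed no common direction. The published lung metastasis signature, which was derived from sublines of MDA-MB-231, had 5 of 20 members higher and 3 lower (median -0.01), with MMP1 among the former. Without LM2 control replicate 2 or 3 the members that rose were 3 and 2, without any 1 MDA-MB-231 library 5 or 6 fell, and without LM2 shTAF7 replicate 3 it was 2. Of 23 integrins and laminins 5 fell and 1 rose, including the laminin chain LAMC1 (-0.50 ± 0.08), and 3 fell without LM2 control replicate 2, LM2 control replicate 3 or LM2 shTAF7 replicate 2 and 2 without LM2 shTAF7 replicate 3. VIM, the mesenchymal filament vimentin, rose from 948 and 969 to 1231 and 1332 CPM in MDA-MB-231 and from 1498 and 1400 to 2103 and 2354 in LM2 (0.52 ± 0.07, edgeR adjusted p = 0.0021). The epithelial keratin KRT19 rose as well, and no single direction held for mesenchymal markers (1 higher and 2 lower of 15) or epithelial ones (3 and 3 of 19). Counts this small moved by 1 to 3 members when single libraries were left out. Of 6 tested endothelial markers, ESAM (0.29 ± 0.08) and EGFL7 (0.39 ± 0.09) rose, each called within MDA-MB-231 but not within LM2. PECAM1, VWF, KDR and TIE1 were not called, and the median of the list was -0.15 (0.47 in MDA-MB-231 and -0.31 in LM2). CDH5 had at most 3 counts in any library, and the summed endothelial list was 51.3 to 56.05 and 71.9 to 76.8 CPM in MDA-MB-231 control and shTAF7, and 118 to 121 and 115 to 121 in LM2. ESAM was not called when control replicate 2 of MDA-MB-231 was left out (adjusted p = 0.0751), nor without its control replicate 3 (0.0588), shTAF7 replicate 2 (0.0631) or LM2 shTAF7 replicate 3 (0.0587), and EGFL7 was not without MDA-MB-231 control replicate 2 (0.0531). With limma neither passed (0.1 and 0.0635), nor did EGFL7 with length and GC offsets (0.202). The part of these cells in any result was not tested.

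**Figure D4:**
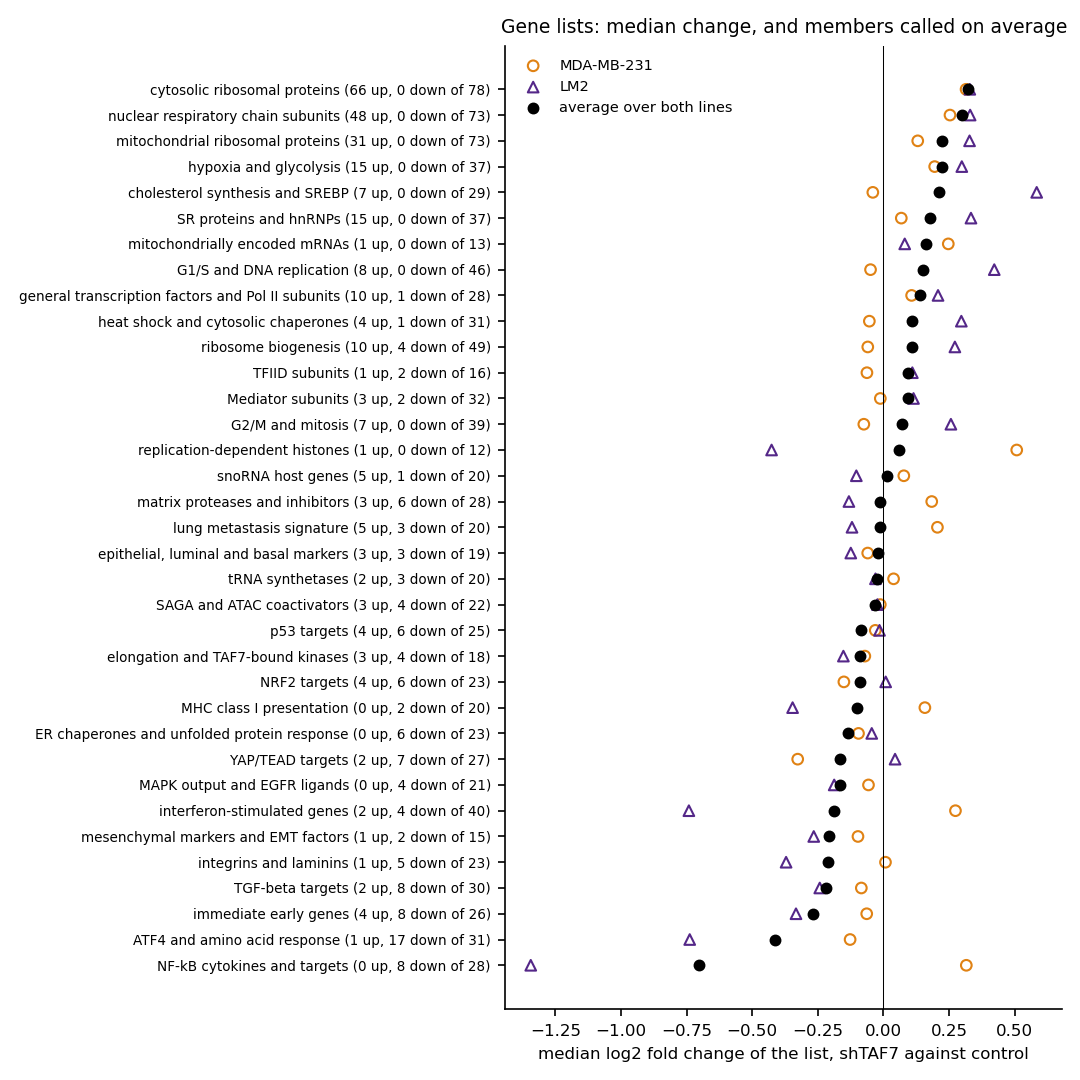
Median log2 fold change of shTAF7 against control for lists with at least 10 tested genes, on average (filled circles), in MDA-MB-231 (open circles) and in LM2 (triangles); labels give the members called higher and lower on average. Cytosolic ribosomal proteins (0.31 and 0.33) and respiratory subunits (0.25 and 0.33) have similar medians in both lines, while NF-kB targets lie at 0.32 in MDA-MB-231 and -1.34 in LM2.

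Transcript length separated the genes that rose from those that fell. Among 12883 tested protein-coding genes, divided into 5 equal bins by the longest transcript in GENCODE release 29, 30.3% of the shortest bin rose and 2.33% fell, while in the longest bin 2.91% rose and 20.3% fell. The median log2 fold change went from 0.19 in the shortest bin to -0.13 in the longest, with 0.20 and -0.13 in MDA-MB-231 and 0.20 and -0.11 in LM2. The medians of the bins were close to each other in the 2 lines. Across genes the Spearman correlation of length with the log2 fold change was -0.36 on average, -0.37 in MDA-MB-231 and -0.23 in LM2. Without the ribosomal, mitochondrial ribosomal and respiratory lists 28.0% of the shortest bin still rose. The median longest transcript was 2193 bases for genes that rose, 5261 for those that fell and 3334 for all tested, and the median number of its exons was 5, 11 and 7. Per library, the shortest bin took 22.5% and 22.8% of coding CPM in MDA-MB-231 control libraries, 24.9% and 26.4% with the hairpin, 25.6% and 26.4% in LM2 control libraries, and 27.1% and 27.8% with the hairpin. The share was higher in both shTAF7 libraries of each line, though MDA-MB-231 shTAF7 replicate 3 reached the LM2 controls. RNA integrity and fragment sizes were not analysed here, and their part in the gradient was not tested. Protein-coding genes made up 96.0% of the genes that rose, 92.3% of those that fell and 82.3% of all tested with a type. Called genes were also more abundant, with a median of 60.1 CPM for those that rose, 37.0 for those that fell and 18.2 for all tested. The part of abundance in these shares was not tested. Of the genes tested on chromosome 19, 18.8% rose and 4.45% fell, and on chromosome 13 it was 3.26% and 8.33%.

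**Figure D5:**
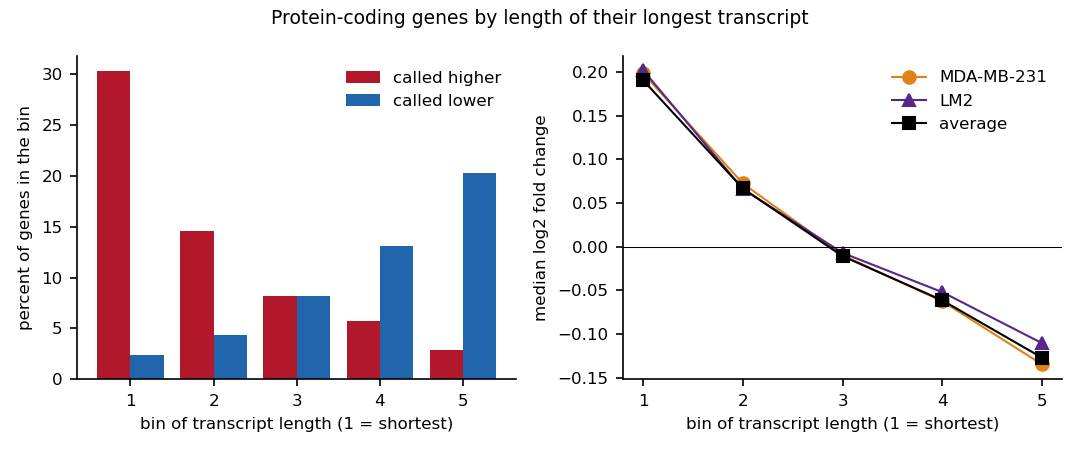
Left, percent of the genes in each of 5 bins of transcript length that were called higher or lower on average; right, median log2 fold change in each bin for MDA-MB-231, LM2 and the average, over 12883 protein-coding genes. Calls shift from 30.3% higher in the shortest bin to 20.3% lower in the longest, and the 3 curves of medians nearly coincide.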

How the data were processed

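RNA-seq of 8 libraries (2 cell lines, 2 hairpins, 2 libraries each) was used. The authors deposited 1 table with raw counts per gene for 61552 genes and FPKM values beside them. STAR 2.7.10a and the build hg19 are named per the submitters' processing notes, and no source used here gives the counter, annotation or strand setting. Counts were fitted with edgeR 4.0.16 (R 4.3.3) after its expression filter over the 4 groups and TMM scaling. The average effect came from a model with a line term and a hairpin term, with 5 residual degrees of freedom, the quasi-likelihood test and Benjamini-Hochberg adjustment over 15923 genes, called under 0.05. Responses that differ between lines enter its residual spread, and libraries weigh by their counts. Effects within lines and their difference came from a model of group means with 4 residual degrees of freedom. Errors are standard errors of the fit (the log2 fold change over the square root of F). Alternatives were DESeq2 1.42.0, limma 3.58.1 on log2(FPKM + 1) of the deposited FPKM, other scalings and filters, blocks and left-out libraries. Named were all subunits of TFIID, and 12 called genes with the largest rise and 12 with the largest fall (mean at least 5 CPM). The 8 per direction with the smallest p (at least 20 CPM) were added. Apart from TFIID, these had no overlap within each line. Up to 4 called members of each list with the largest change were also named. So were 6 genes with opposite calls that the average did not call. The last were 6 per direction called in that direction in 1 line alone. The members and lists were chosen with earlier results of these data known. Promoters and transcript lengths came from RefSeq and GENCODE tables.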

Additional observations from a re-analysis of the deposited data

Results flagged for a closer look

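For the following genes the effect of the hairpin differed between the lines by the interaction term of the edgeR fit at an adjusted p under 0.05, each value being the log2 effect in LM2 minus that in MDA-MB-231. Opposite calls in the lines gave -5.81 for IL1B, -3.34 for CXCL8, -3.10 for ICAM1, -2.21 for TXNIP, -1.97 for VEGFA and -1.95 for PTX3. Inflammatory genes with few reads in MDA-MB-231 gave -6.77 for VCAM1, -5.97 for C3, -4.19 for IL6 and -2.82 for CSF3. Among them, IL6 and CSF3 were also called in opposite directions in the lines. Genes that fell further in LM2 were GDF15 (-4.71), SAA1 (-2.78), EPAS1 (-1.92), SESN2 (-1.25), STC2 (-1.19), CHAC1 (-0.67), ATF3 (-0.61), IL7R (-0.52), EGR1 (-0.37) and LAMC1 (-0.31). The fall was larger in MDA-MB-231 for MFAP3 (0.47), TAF7 (0.34), MAPK6 (0.33), KRT80 (0.31) and SLC7A11 (0.29). Among genes that rose, the rise was larger in LM2 for NKX2-1 (1.16), IGFBP3 (0.90), KRT19 (0.69), INSIG1 (0.62), MT-ND3 (0.46), NELFA (0.44) and POLR2L (0.36), and smaller there for CRABP2 (-0.58).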

How the results depend on the processing

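Genes higher, lower, at least 2-fold higher and at least 2-fold lower numbered 1662, 1355, 29 and 164. DESeq2 gave 16 and 56 at least 2-fold, and no low-count filter gave 56 at least 2-fold higher. The mean of the within-line contrasts, whose residual leaves out the difference between lines, gave 3180, 2929, 52 and 251. Without a line term the counts were 0, 1, 0 and 1, although 1497 genes had an unadjusted p under 0.05. Deviations from the group mean in libraries of the same replicate number correlated at -0.034 for MDA-MB-231 and at -0.0073 for LM2. With 2 libraries a group these deviations mirror each other. Each line thus gives a single value over all genes tested, which cannot settle whether the numbers mark pairs. A replicate block within lines gave 499, 375, 16 and 46. GDF15 and EPAS1 lost their calls with this block (adjusted p = 0.12 and 0.104), and with the number as a block across lines (0.0622 and 0.0523). Limma on log2 FPKM gave 1071 higher, and 1 and 9 at least 2-fold, and a test against 1.5-fold gave 2 and 9 genes, all of them at least 2-fold (2 and 9). Length and GC offsets, chosen after seeing the data, gave 874 lower. Leaving out 1 library gave 774 to 1670, 654 to 1299, 15 to 38 and 53 to 259. Under the mean of the within-line contrasts CSF3 (0.126) and VCAM1 (0.290) turned positive, both nearly unexpressed in MDA-MB-231. Of 159 named genes called, 158 kept the call with RLE size factors, 90 with the replicate block, 111 with limma, 9 in the test against 1.5-fold, 1 without the line term and 113 to 153 with 1 library left out. The causes of these shifts were not tested. With 2 libraries a group, 1 read at 0.0488 to 0.0583 CPM limits genes below about 1 CPM.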
